A study of Mus musculus with 3 samples.

Results

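The AP-1 and BATF family factors are 10 genes of the basic leucine zipper (bZIP) class of transcription factors. They were chosen by name, as Jun, Junb, Jund, Fos, Fosb, Fosl1, Fosl2, Batf, Batf3 and Atf3, and all 10 were found among the 50600 genes of the deposited tables. RNA was sequenced from T-helper 1 (Th1) primary cells of mouse strain C57BL/6NJ, the helper fate marked by Tbx21 and interferon gamma. There was 1 group of 3 libraries and no control, numbered by the labels as biological replicates 1 to 3 with 1 shared donor record; age and sex were not given. A time of 72 hours and the word Sorted stand in the file headers, and what was sorted and when the time began are not known here. The assay is labelled total RNA, although its library protocol refers by name to poly(A)+ RNA.

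A bZIP factor grips DNA with a basic region and pairs with a second bZIP protein through the leucine zipper next to it. Jun proteins can pair with each other, while Fos proteins need a Jun partner, and the pair is the AP-1 factor that T-cell receptor signals raise through MAP kinases. Batf and Batf3 pair with Jun proteins but lack the activation domain of Fos, and at composite sites they bind together with the interferon regulatory factors Irf4 or Irf8. Atf3 is a stress-induced member that also pairs with Jun proteins.

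The stretch that codes for the basic region is what makes these genes 1 class, so it is shown for all 10. It was located in the longest open reading frame of a GENCODE transcript of each gene by the amino-acid signature of the basic region, which occurred once in each. Each line holds 60 bases (20 codons) of the coding strand, 5′ to 3′, and capitals mark the 12 bases that were the same in all 10 genes.
Jun: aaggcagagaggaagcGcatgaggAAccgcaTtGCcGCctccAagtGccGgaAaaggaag
Junb: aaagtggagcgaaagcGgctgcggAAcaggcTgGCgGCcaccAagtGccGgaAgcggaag
Jund: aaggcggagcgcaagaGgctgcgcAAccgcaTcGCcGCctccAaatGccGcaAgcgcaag
Fos: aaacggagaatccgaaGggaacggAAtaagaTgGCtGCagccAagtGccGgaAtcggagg
Fosb: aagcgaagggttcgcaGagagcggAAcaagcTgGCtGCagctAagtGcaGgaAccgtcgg
Fosl1: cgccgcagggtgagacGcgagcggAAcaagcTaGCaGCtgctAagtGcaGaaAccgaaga
Fosl2: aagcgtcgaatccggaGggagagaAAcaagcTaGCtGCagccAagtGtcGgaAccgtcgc
Batf: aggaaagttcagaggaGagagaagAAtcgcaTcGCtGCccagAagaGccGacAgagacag
Batf3: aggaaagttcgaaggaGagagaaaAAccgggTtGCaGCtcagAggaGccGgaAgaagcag
Atf3: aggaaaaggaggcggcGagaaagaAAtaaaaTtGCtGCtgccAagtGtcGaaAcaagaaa
Identity over these 60 bases was 73.3% to 76.7% among the 3 Jun genes, 61.7% to 76.7% among the 4 Fos genes and 76.7% between Batf and Batf3. Between genes of different subfamilies it ran from 41.7% to 61.7%.

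The files give fragments counted per gene on 1 strand, and levels are TPM, the count per exon base scaled to the same sum over all genes in each library, so levels are compared between genes per length. The libraries held 4482916, 266790 and 3733531 counts in replicates 1, 2 and 3, so replicate 2 was 16.8-fold shallower than replicate 1. The 10 genes held 5097, 232 and 3024 of these. Genes whose exons overlap an exon on the other strand (overlapped below) were 16.2% of all genes and held 51.7%, 55.1% and 66.5% of the counts. The T-cell genes Cd4 (174 ± 53.5 TPM, SD, n = 3) and Trac (222 ± 81.3) and 4 of 5 Th1 markers, Ifng and Tbx21 among them, were counted in every library, while the fifth, Cxcr3, had 8, 0 and 6 counts. The T-cell gene Cd3e (overlapped) had 292, 1 and 157 counts in replicates 1, 2 and 3. Of 21 marker genes of other cell types, 12 had 0 counts in each library, among them Cd8a, Lyz2 and Ncr1. The macrophage gene Csf1r (overlapped) was highest of the 21 at 111 ± 25.0 TPM. Cd8b1 had 14, 0 and 7 counts, the B-cell gene Cd79a 11, 2 and 31, and the erythroid gene Alas2 (overlapped) 18, 7 and 33. In such bulk samples, fewer cells with a transcript and less of it per cell cannot be told apart.

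On the counted strand, Junb, Batf and Jund led the family, and Fos and Fosb were at or near the counting floor. Of the 10 genes, 9 had a mean of at least 1 TPM, a level that 47.8% of the 21764 protein-coding genes reached. At 10 TPM or more stood 8 of the 10, against 27.3% of protein-coding genes, and at 100 TPM or more 3 of the 10, against 4.09%. The median of the 10 means was 29.3 TPM and that of all protein-coding genes 0.634 TPM. These genes were picked by name, so the counts are a description with no test. As a share of the summed TPM of the 10, the 3 Jun genes held 63.9% ± 4.28, Batf and Batf3 28.1% ± 4.02, Atf3 4.32% ± 0.678 and the 4 Fos genes 3.71% ± 0.522 (SD, n = 3). With the fragments of Gm11175, a gene on the other strand inside Jund, added to Jund after the data were seen, the Jun genes held 90.1% ± 2.95, Batf and Batf3 7.72% ± 2.48, Atf3 1.16% ± 0.264 and the Fos genes 1.01% ± 0.314.

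**Figure D1:**
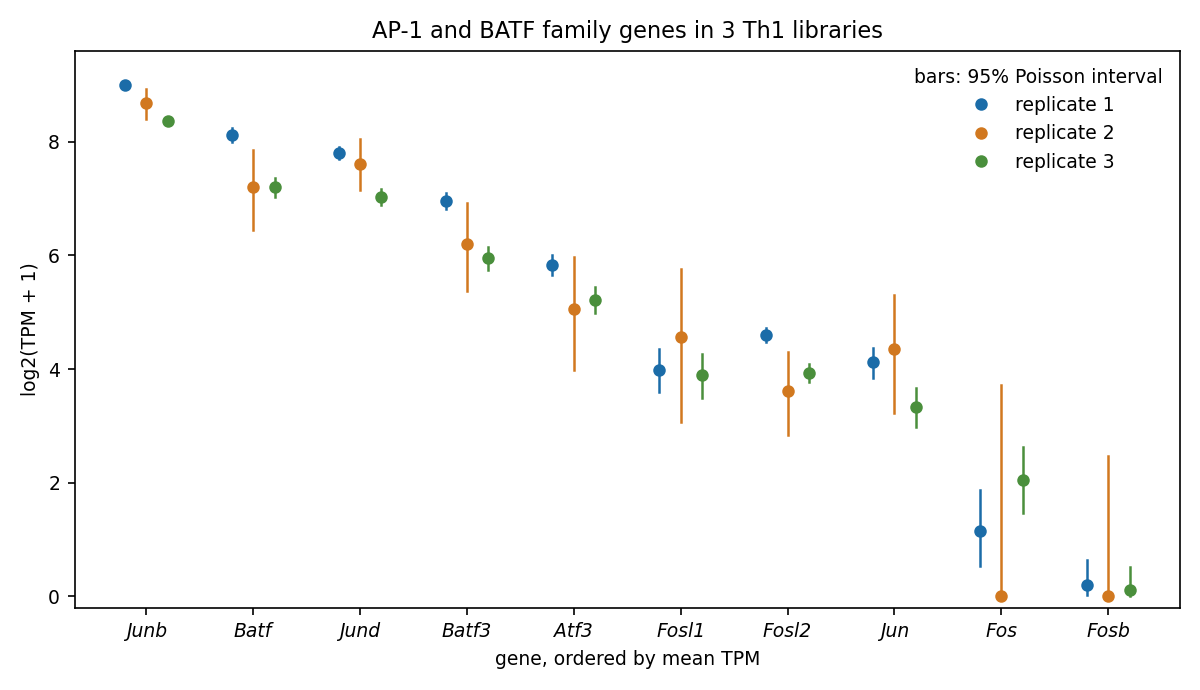
Level of each gene on the log2(TPM + 1) scale in the 3 Th1 libraries, ordered by mean TPM, with bars for the 95% Poisson interval of the count. Junb sits highest in each library, and Fos and Fosb lie at 0 in replicate 2, where the bars are widest.

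Among the Jun genes, Junb was the most abundant on the counted strand. It encodes a Jun protein that partners Batf and is needed for several helper T-cell programmes. Junb (chr8:84974484-84978718, mm10, minus strand) had 2463, 121 and 1540 counts in replicates 1, 2 and 3, which is 512, 407 and 329 TPM, with a mean of 416 ± 91.9 TPM (SD, n = 3). By mean TPM it ranked 174 of 21764 protein-coding genes. Its level was highest in replicate 1, and it was lowest in replicate 3 by TPM and in replicate 2 by TMM-scaled CPM. Its exons share 173 of their 2301 bases (7.52%) with the antioxidant gene Prdx2 on the other strand, which was counted at 110, 35.5 and 74.9 TPM.

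Jund, a Jun gene known for steady expression in many cell types, had 222, 195 and 129.5 TPM on 773, 42 and 440 counts (chr8:70698949-70700616, plus strand). The mean was 182 ± 47.4 TPM, and all 3 values lay below the lowest of Junb. The single exon counted for Jund is 1668 bases long, and the noncoding antisense gene Gm11175 lies inside it on the other strand, with all of its 877 exon bases. Gm11175 had 10332, 344 and 11846 counts, or 13.4, 8.19 and 26.9 times as many as Jund in replicates 1, 2 and 3. Per length it stood at 5101 ± 1857 TPM.

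For 52.6% of the Jund exon, both strands of the same DNA were counted, while the rest of the exon faces no annotated exon. A stretch of 60 bases within the coding part of Jund and Gm11175's longest transcript is shown on each strand (chr8:70699779-70699838, mm10), 5′ to 3′, and each line is the reverse complement of the other.
Jund, plus strand: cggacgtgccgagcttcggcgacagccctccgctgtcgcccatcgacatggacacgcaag
Gm11175, minus strand: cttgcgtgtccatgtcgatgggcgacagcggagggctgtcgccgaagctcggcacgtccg
All 543 bases of that Gm11175 transcript lay within the coding part of Jund. Within the shared bases, a fragment is given to one gene or the other by the strand setting, which was 1, and the totals per gene do not show which bases the fragments came from. With the fragments of Gm11175 added to its own, an addition chosen after the data were seen, Jund had 3184, 1791 and 3617 TPM, a mean of 2864 ± 954, and stood above Junb in 3 of 3 libraries (mean log2 ratio of Junb to Jund -2.74 ± 0.667, against 1.2 ± 0.139 as counted). For the 7 family genes with no annotated gene facing them, the files hold no count of the other strand. All levels given are for the strand that was counted, and whether the RNA came from that strand was not tested. RefSeq on the same assembly (GRCm38.p6) starts Jund 1210 bases upstream of the model counted here.

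**Figure D2:**
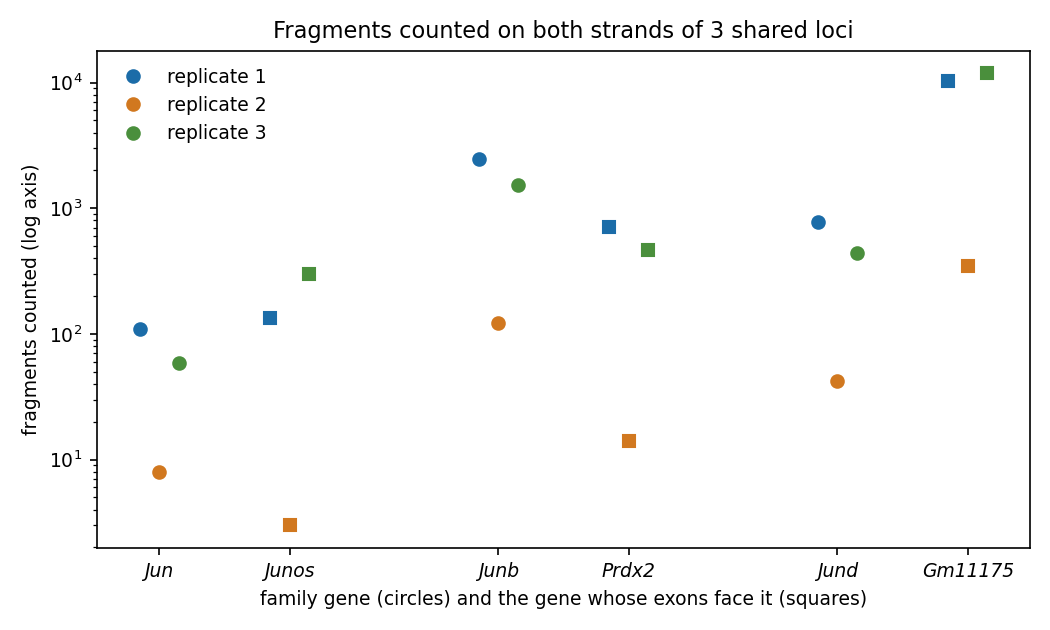
Fragments counted in each library (log axis) for the 3 family genes whose exons face another gene, as circles, and for the facing gene, as squares. Gm11175 lies above Jund in 3 of 3 libraries, Prdx2 lies below Junb in 3 of 3, and Junos is above Jun in replicates 1 and 3 and below it in replicate 2.

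Jun itself, the founding member of the family, was far lower than Junb and Jund on the counted strand. It had 16.3, 19.4 and 9.09 TPM on 109, 8 and 59 counts, and a mean of 14.9 ± 5.31 TPM (chr4:95049034-95052222, minus strand). Within libraries Junb was 31.3, 20.96 and 36.2 times as high as Jun, with 95% binomial intervals of 25.8 to 38.3, 10.3 to 49.7 and 27.9 to 47.8 in replicates 1, 2 and 3. Jund was above Jun in 3 of 3 libraries as well, by a mean log2 ratio of 3.55 ± 0.246. The antisense gene Junos shares 232 exon bases with Jun, 7.28% of its 3189, and had 134, 3 and 302 counts. Its level exceeded that of Jun in replicate 3 alone, with 36.0 against 9.09 TPM.

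The Fos genes split, on the counted strand, into a pair with a moderate level and a pair near 0. No annotated gene faces their exons, so their other strand was not counted. Fosl2, which encodes Fra-2, had 23.3, 11.2 and 14.2 TPM on 471, 14 and 280 counts, with a mean of 16.2 ± 6.29. Fosl1, which encodes Fra-1, had 14.8, 22.7 and 13.8 TPM on 53, 5 and 48 counts, with a mean of 17.1 ± 4.84. Fosl2 was above Fosl1 in replicates 1 and 3 and below it in replicate 2, where Fosl1 rested on 5 counts, and the mean log2 ratio of -0.1 ± 0.795 turned to 0.33 without replicate 2.

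Fos, the classic immediate early gene, had 6, 0 and 15 counts, or 1.22, 0 and 3.13 TPM. In replicate 2 the counting floor of 3 counts equalled 9.87 TPM, and the upper 95% Poisson limit for its count of 0 was 12.1 TPM. Its level there was not resolved at this depth. The mean was 1.45 ± 1.58 TPM, and it was 0.610 without replicate 3. Fosb, its close relative, had 2, 0 and 1 counts and a mean of 0.0773 ± 0.0766 TPM, or 0.0393 without replicate 1. Fosl2 stood above Fos by 19.1-fold in replicate 1 (95% binomial interval 8.70 to 52.2) and 4.54-fold in replicate 3 (2.70 to 8.21). These intervals and the limits for a count of 0 cover counting error only.

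Batf and Batf3 were both counted well above the Fos genes, with Jund between them in mean level. Batf, required for Th17 and follicular helper fates and active in Th1 effectors, had 277, 146 and 146 TPM on 553, 18 and 284 counts, with a mean of 190 ± 75.6 (chr12:85686669-85709087, plus strand). Batf3, best known from cross-presenting dendritic cells, had 124, 72.7 and 60.9 TPM on 414, 15 and 198 counts, with a mean of 85.8 ± 33.5 (chr1:191097847-191108945, plus strand). Both were highest in replicate 1. No annotated gene overlapped their exons on the other strand, so that strand was not counted for them. Of the 3 dendritic cell markers listed, Zbtb46 had 14, 2 and 9 counts (1.04 ± 0.686 TPM), Xcr1 had 2, 0 and 5 counts, and Flt3 had 0 in each library.

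Batf was above Batf3 in 3 of 3 libraries by a steady margin, with ratios of 2.23, 2.01 and 2.40. The mean log2 ratio was 1.13 ± 0.128, and the counting interval in replicate 2, 0.955 to 4.28, held 1. Set against its partner Irf4, Batf had a mean log2 ratio of -0.19 ± 0.33 (exact two-sided sign-flip permutation test, p = 0.5), with Batf higher in 1 of 3 libraries. Irf4 was at 211 ± 47.8 TPM and Irf8 at 140 ± 36.8. Batf was below Junb in 3 of 3 libraries by a mean log2 ratio of -1.17 ± 0.295, and Batf3 below Junb by -2.31 ± 0.235.

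Atf3 was intermediate. It had 56.2, 32.3 and 36.2 TPM on 253, 9 and 159 counts, and a mean of 41.6 ± 12.8. It lay below Batf3 in 3 of 3 libraries (mean log2 ratio -1.002 ± 0.233). The counted model of Atf3 has 5 exon blocks over chr1:191170296-191218039, and it begins far upstream of the RefSeq start. Atf3 and Batf3 are both on chromosome 1, and Fos and Batf are both on chromosome 12.

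**Figure D3:**
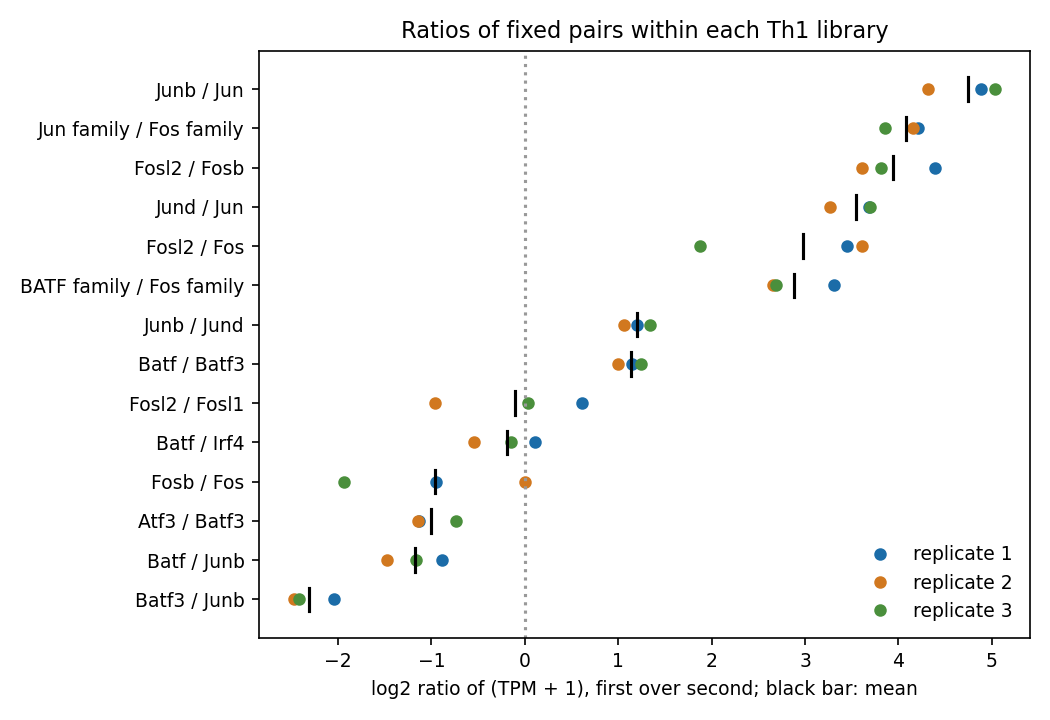
log2 ratio of (TPM + 1) of the first gene or family over the second, for 14 fixed pairs, with 1 point per library and a bar at the mean. The points lie on 1 side of 0 for all pairs but Fosl2 over Fosl1, Batf over Irf4 and Fosb over Fos, for which replicate 2 had 0 counts in both genes.

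Summed over subfamilies on the counted strand, the Jun genes exceeded the Fos genes by a mean log2 ratio of 4.08 ± 0.189 (613 ± 141 against 34.9 ± 4.22 TPM). With the fragments of Gm11175 added to Jund, that ratio was 6.48 ± 0.475 and the Jun sum 3295 ± 941 TPM. Batf and Batf3 together exceeded the Fos genes by 2.89 ± 0.369 (275 ± 109 TPM), in 3 of 3 libraries. With 3 libraries, the exact sign-flip permutation test cannot go below p = 0.25, which 11 of the 14 pairs had, so the order rests on the number of libraries and the spread. In the order of mean TPM, the ranges over libraries did not overlap between Junb and Batf, Jund and Batf3, Batf3 and Atf3, Atf3 and Fosl1, or Jun and Fos. They overlapped between Batf and Jund, Fosl1 and Fosl2, and Fosl2 and Jun, so these neighbours did not differ beyond their spread. Fos and Fosb overlapped only through their 0 counts in replicate 2, and the 95% binomial interval of the Fosb to Fos ratio lay below 1 in replicate 1 (0.0124 to 0.702) and in replicate 3 (0.000597 to 0.163). The ranges over libraries leave out counting error. In replicate 2, the 95% Poisson interval of Atf3 (14.8 to 61.4 TPM) overlapped those of Batf3 (40.7 to 120) and Fosl1 (7.36 to 52.9). Those of Jun (8.38 to 38.3 TPM) and Fos (0 to 12.1) overlapped there as well. Those of Junb and Batf, and of Jund and Batf3, did not.

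Variation between the libraries was tested for every gene with a mean count of at least 10, by a chi-square test on the counts against TMM-scaled library sizes. To be called, a gene needed a p under 0.05 after Benjamini-Hochberg adjustment and at least 2-fold between its highest and lowest libraries. Of 11595 genes, 3731 (32.2%) were called, and 7.59% were called with replicate 1 highest. Of the 9826 protein-coding genes among them, 2556 were called, and of the 4662 overlapped genes, 2019 were called. Of the 10 family genes 8 were tested and 1 was called, and Fos and Fosb were too low to test. The called gene was Fosl2, with a TMM-scaled CPM of 99.8, 49.1 and 84.5 in replicates 1, 2 and 3, a ratio of 2.03 and a chi-square adjusted p of 0.00998. It rested on 14 counts in replicate 2. On genes without an overlap it was not called (ratio 1.99, chi-square adjusted p = 0.1), where 17.3% of genes were called. It was also not called with DESeq2 size factors (31.9% of genes called), without replicate 1 (18.0%) or without replicate 2 (14.9%). Without replicate 3 it was called, as were 11.8% of genes.

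The other tested genes stayed under 2-fold. Batf had a ratio of 1.86 (chi-square adjusted p = 3.48e-05) and Batf3 of 1.67 (chi-square adjusted p = 5.68e-05), both highest in replicate 1. Junb and Jund also passed the p alone, with the smallest ratios of the 8 at 1.23 each. Jun (1.58), Fosl1 (1.56) and Atf3 (1.70) did not pass it. Without replicate 2, Fos entered the test and was called, with 15 counts in replicate 3 and 6 in replicate 1, where 14.9% of all genes tested were called. These p-values compare the libraries and allow for counting error alone.

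Within the whole bZIP class the family filled several of the top places. Of 53 bZIP genes listed, 37 had a mean of at least 1 TPM and 5 had 0 counts in each library. Of the 43 that are not among the 10 genes, 28 reached 1 TPM and 17 reached 10 TPM. Junb was highest, followed by Atf4, the amino-acid stress factor (365 ± 129 TPM), Batf, Jund and the stress factor Ddit3 (overlapped, 180 ± 46.7). Atf5 (overlapped, 114 ± 17.2) came before Batf3, and Xbp1 of the unfolded protein response after it (83.5 ± 43.8). With the counts of Gm11175 added, Jund would be first.

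Bach1, Bach2, Jdp2 and Batf2, which stand in both the bZIP list and the list of brakes below, had means between 0.60 and 28.7 TPM. Batf2, the third BATF gene, had 28.7 ± 13.9 TPM (overlapped), was called between libraries and was highest in replicate 3. Bach2, which competes for AP-1 sites and keeps T cells quiescent, had 8.45 ± 1.88 TPM (overlapped), and Jdp2, a Jun-binding repressor, 0.60 ± 0.533. Bach1 had 0.733 ± 0.641. Of the Maf genes, Maff (37.3 ± 2.75) and Mafk (overlapped, 12.3 ± 5.88) were counted at over 10 TPM, while Maf itself had 2 counts in all. Atf2, which pairs with Jun at a longer site, had 9.17 ± 3.42 TPM.

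**Figure D4:**
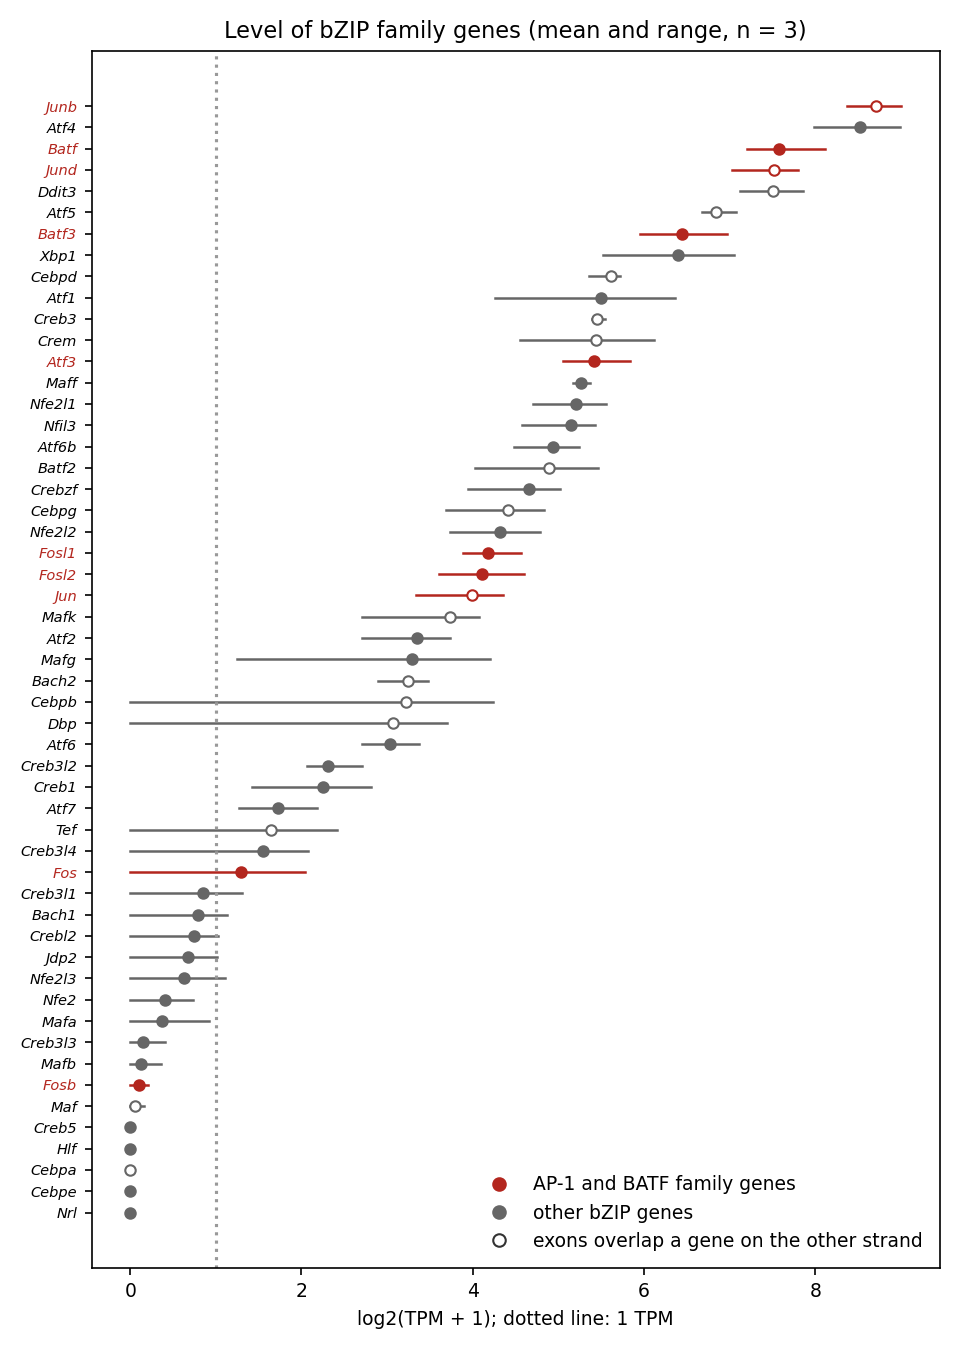
Mean level (point) and range over the 3 Th1 libraries (line) of 53 bZIP genes on the log2(TPM + 1) scale, with the 10 family genes in red and genes overlapped on the other strand as open points. Junb is at the top, 3 of the 10 are above 100 TPM, and Fosb is among the genes next to 0.

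The genes that act with AP-1 and BATF factors were counted from lists fixed with earlier results known. Of 15 transcription factors listed as partners of these factors at composite sites, all had at least 1 TPM and 10 had at least 10 TPM. The highest were Irf4, Irf8, Tbx21 (70.5 ± 22.1), Stat3 (overlapped, 59.0 ± 11.4) and Runx3 (38.5 ± 7.92). Of these 15, 0 were called between libraries by the chi-square test, against 32.2% of all genes tested and 2556 of 9826 protein-coding genes. Nfatc1, a calcium-driven partner of Fos and Jun, had 21.4 ± 6.39 TPM, which the naming rule did not cover and which was chosen after its value was seen.

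Among 26 genes of the kinase routes to AP-1, 25 had at least 1 TPM and 20 at least 10. Among the highest were Malt1, which links the T-cell receptor to NF-kB and JNK signalling (60.9 ± 20.2 TPM), and the p38 pathway kinase gene Map2k3 (47.6 ± 38.2, or 25.9 without replicate 2). Mapk10, the JNK gene of nervous tissue, had 0 counts. Of the 24 tested, 8 were called between libraries, against 32.2% of all genes tested and 2556 of 9826 protein-coding genes.

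Of 22 immediate early genes and their upstream factors, all had at least 1 TPM and 12 at least 10. Myc led with 183 ± 60.1 TPM, then the phosphatase gene Dusp2 (76.0 ± 37.2), Ier2 (60.2 ± 31.4), Elk3 (overlapped, 37.9 ± 17.4) and Ier5 (33.7 ± 7.99). Of 22 tested, 5 were called, against 32.2% of all genes tested and 2556 of 9826 protein-coding genes. Of the 22, 4 were called with replicate 2 highest and 1 with replicate 1 highest, against 10.5% and 7.59% of all. In the list of turnover and brakes, 16 of 18 matched genes had at least 1 TPM and 8 at least 10. Ndfip1, which activates the ligase Itch that degrades Jun proteins, was highest at 229 ± 114, and the MAP kinase phosphatase genes Dusp4 and Dusp5 had 89.5 ± 32.0 and 50.7 ± 16.4 TPM. Of 16 tested, 4 were called, against 32.2% of all genes tested and 2556 of 9826 protein-coding genes.

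Of 30 genes known as AP-1 or BATF targets, 26 had at least 1 TPM and 22 at least 10. Lta (1591 ± 483 TPM), Timp1 (804 ± 322), Ifng (604 ± 252), Il2ra (559 ± 166) and Ctla4 (325 ± 119) led, and Il17a, a target in Th17 cells, had 0 counts in each library. Of 26 tested, 5 were called between libraries, against 32.2% of all genes tested and 2556 of 9826 protein-coding genes. The median level of the target list was 37.8 TPM, of the kinases 22.3, of the partners 21.4, of the immediate early list 14.5 and of the brakes 8.74.

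The protein-coding genes most like each family gene over the 3 libraries were taken by the smallest root mean square difference of log2(TPM + 1), among genes without an overlap. For Junb these were H2-K1 (0.0608), Hmgb2 (0.0858) and Cct5 (0.138), and for Jund Canx (0.0354), Psmc5 (0.0595) and Cd53 (0.0686). For Batf they were Lck (0.0881), Myc (0.0922) and Clic1 (0.107), and for Batf3 Atp6v1f (0.0578), Mrpl32 (0.0688) and Cnn2 (0.0763). Jun was nearest to Rtel1 (0.0356), Fosl2 to Tgs1 (0.0604) and Atf3 to Zfp598 (0.0367). Likeness here is closeness in level over 3 libraries.

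Promoter windows, from 250 bases before to 50 after the RefSeq start (GRCm38.p6), were held for 9 of the 10 genes. The AP-1 motif TGANTCA, searched on both strands, was in 0 of the 9 and in 7.81% of all 32851 windows. The CRE motif TGACGTCA was in 0 of 9 (1.79% of all) and the CArG box, the serum response element core, in 0 of 9 (1.63% of all). The letters TATAAA were in the windows of Junb and Fos, the highest gene and one of the lowest, and in 13.6% of all. Relative to the RefSeq start, these letters began at -33 in Fos and at 0, the start itself, in Junb. GC content ran from 46.7% in Jund to 75.7% in Batf3, with a median of 52.7% over all windows. A window without the letters says nothing of the factor.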

How the data were processed

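Fragments were counted per gene by the authors using featureCounts 1.4.6-p4 and deposited as raw counts, per the file headers. These also record paired fragments with both ends mapped, exons counted by gene with GENCODE mouse release 13, and strand setting 1; the labels give mm10. No source used here gives the version of the aligner.

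Symbols and gene types came from GENCODE mouse release 21 (GRCm38, the assembly of mm10), which matched 50376 of 50600 identifiers. TPM was computed from the deposited counts and exon lengths. Library sizes used TMM (edgeR 4.0.16, R 4.3.3), with DESeq2 1.42.0 size factors as an alternative; other steps used Python 3.11.15 and scipy 1.17.1. A gene was overlapped when any exon base lay in an exon of the other strand. For a gene of 2 kb, 3 counts equalled 0.717, 11.6 and 0.737 TPM in replicates 1, 2 and 3. Fixed pairs were compared with a pseudocount of 1. The chi-square per degree of freedom between libraries was 5.41 to 32.5, so no library was a copy of another. The p-values of the pairs measure only the spread between these libraries, which may be technical. The chi-square procedure was tested on simulated data.

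The genes, lists, pairs and tests were chosen with earlier results of these data known. Named genes were the 10 genes, any listed bZIP gene, genes facing them, genes of the pairs, and of other lists the 5 highest and those with 0 counts. For genes with a mean of at least 50 counts, up to 3 nearest genes were named. Cell type markers came from a separate list. Some genes that the rule covers are not reported here. Alternatives were other scalings, thresholds, pseudocounts and filters, and each replicate left out.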

Additional observations from a re-analysis of the deposited data

How the results depend on the processing

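Under TMM and DESeq2 scaling and with medians, the mean level of each of the 10 genes moved by less than its SD. Scaled over genes without an opposite-strand overlap, a smaller sum, the means were 1241 for Junb, 562 for Batf, 537 for Jund, 252 for Batf3, 125 for Atf3, 51.5 for Fosl1, 48.8 for Fosl2, 43.5 for Jun, 5.22 for Fos and 0.235 TPM for Fosb, in an order that matched the main one. Adding the fragments of Gm11175, chosen after the data were seen, gave 2864 TPM for Jund and first place, and a log2 ratio of Junb to Jund of -2.74. Without 1 replicate, the log2 ratio of Fosl2 to Fosl1 ran from -0.46 to 0.33, and the number of genes at 1 TPM or more from 8 to 9. Of the 53 bZIP genes, 22 were both free of an overlap and at 1 TPM or more. The count of varying genes was 1750 at a mean count of at least 100 and 1201 on genes without an overlap, and from 1332 to 1941 without 1 replicate. Of the 10 genes, 0 were called with DESeq2 size factors (31.9% of all genes) or on genes without an overlap (17.3%). At a mean count of at least 1, 2 were called, Fos and Fosl2 (25.0% of all). Without replicate 1, 0 were called (18.0%), without replicate 2, 1 (Fos, 14.9%), and without replicate 3, 1 (Fosl2, 11.8%). The cause of these changes was not tested. Fosb stayed under the counting floor of 3 counts in each library, and Fos did so in replicate 2. Why these counts were low was not tested. The low depth of replicate 2 limits the precision of its values. No paired analysis was possible because all 3 libraries belong to 1 group.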
